A study of Mus musculus with 6 samples.

Results

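The tibialis anterior muscle of control mice was profiled 7 days after an injection of cardiotoxin, and 14873 of the 52369 genes in the table, those whose FPKM averaged 1 or more over its 3 libraries, are described here. FPKM is a read count divided by gene length and library size. The series holds 6 samples in 2 groups of C57BL/6 mice, and only the 3 control libraries are used. The mice received 50 µl of 10 µM cardiotoxin, a snake toxin that kills muscle fibres, at 5 weeks of age. The injection protocol, written for the whole series, gave 6.25 µg of pcDNA3.1 plasmid in 50 µl of transfection reagent with 10% glucose several times up to day 4, and the muscle was taken on day 7 at 6 weeks of age. The labels name the genotype of these samples only as control, and they do not say what the plasmid of the controls held. They also do not say that the 3 libraries came from separate animals. The sex-linked genes given below differ between library 2 and the others, so library 2 did not come from the same animal as they did, and whether libraries 1 and 3 came from separate animals is not stated. No uninjured muscle or other day was analysed here. With 1 group there is no test between groups, and every statement here is a description of 3 libraries.

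Cardiotoxin destroys muscle fibres but leaves their stem cells, the satellite cells, alive. These cells divide, turn on the myogenic factors Myod1 and Myog, fuse into new fibres, and at first make embryonic and neonatal forms of the contractile proteins before the adult forms replace them. Macrophages clear the debris, and fibroblasts lay down collagen in the same period. In whole muscle, fewer cells of a type and less RNA per cell cannot be told apart.

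The libraries held 20897439, 19420012 and 24663153 reads in genes, so 1 read in a gene of 1000 bases was worth 0.0479, 0.0515 and 0.0405 FPKM. A gene above 1 FPKM had a median of 539 reads per library. Of these genes 14724 carried a mouse symbol and 14015 reached 1 FPKM in every library. At the threshold, Gm16104 lay just inside at 1.00 FPKM and Chrdl2, a BMP antagonist, lay just outside at 0.9996 FPKM. Over genes, the log2(FPKM + 1) values of the libraries correlated with Pearson's r of 0.987 (libraries 1 and 2), 0.982 (1 and 3) and 0.978 (2 and 3). Library 2 differed from the others in its sex-linked genes. Xist, the RNA that silences an X chromosome in females, stood at 0.0536, 92.0 and 0.0324 FPKM in libraries 1, 2 and 3. The Y-linked Eif2s3y stood at 61.2 FPKM in library 1 and 49.9 FPKM in library 3, and library 2 had no read of it, which allows up to 0.121 FPKM. Ddx3y, Kdm5d and Uty, also Y-linked, had no read in library 2 either, and the part of this difference in the other results was not tested.

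Few genes carried much of the RNA. The 64 genes above 1000 FPKM held 22.2% of the summed FPKM, and between 600 and 617 genes made up 50% of it in each library. Protein-coding genes were 12809 of the 14873 and held 95.7% of the FPKM. The 753 long non-coding genes held 1.35% and the 825 pseudogenes 1.89%. The median gene of the 14873 stood at 13.2 FPKM.

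The most abundant named RNAs included genes of the contractile apparatus, the collagen matrix, the mitochondrial genome, immune cells, translation and glycolysis. Mylpf, the fast regulatory myosin light chain, ranked first at 8369, 9710 and 8534 FPKM in libraries 1, 2 and 3 (mean 8871 ± 731, SD, n = 3). Acta1, skeletal alpha-actin, followed at 5718, 9450 and 9339 FPKM, with library 1 well below the other libraries. Col1a1, a chain of type I collagen, came next at 6384, 9283 and 6462 FPKM, with library 2 highest. The ranges of these 3 genes overlapped. Mylpf stood above Col1a1 within each library, while the place of Acta1 changed between libraries and is not resolved by 3 libraries. The next genes were mt-Co1 (mean 5436 ± 327 FPKM), a cytochrome oxidase subunit of the mitochondrial genome, Col3a1 (5371 ± 859 FPKM), type III collagen, and Apoe (5209 ± 257 FPKM), the lipid carrier that macrophages make in quantity. They too overlapped. Further down came Myl1, Col1a2, the translation factor Eef1a1, the matrix protein Sparc, the imprinted RNA H19 and Tnnt3, fast troponin T, all between 3705 and 5014 FPKM on average. The class I antigen genes H2-D1 (3371 ± 637 FPKM), H2-K1 (3112 ± 642 FPKM) and B2m (3010 ± 404 FPKM) stood level with the iron store Fth1 (3112 ± 471 FPKM).

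**Figure D1:**
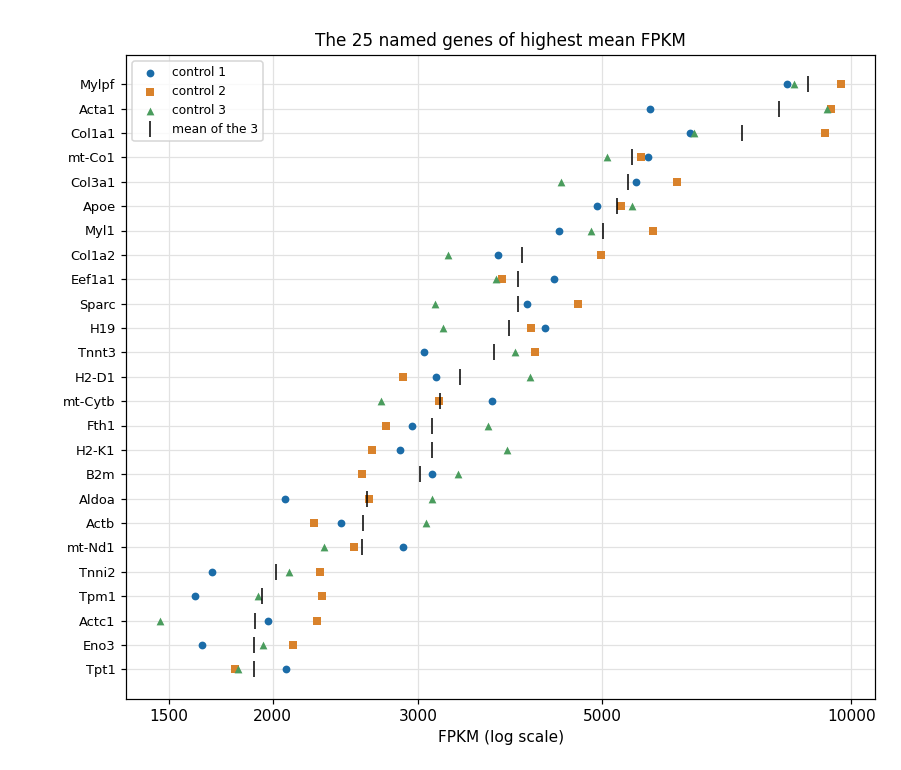
Each row is 1 of the 25 named genes of highest mean, ordered by the mean of 3 control libraries, and the horizontal axis gives FPKM on a log scale. Coloured points are the libraries and the black tick is their mean; Acta1 runs from 5718 to 9450 FPKM, and H2-D1, H2-K1, Fth1 and Actb have their highest point in library 3.

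The gene length behind the deposited values affects this order. The lengths recovered from the values lay within 1% of the mean length of a gene's annotated transcripts in 86.0% of the genes with an annotation, and within 1% of the longest transcript in 19.2%. Genes with many short annotated transcripts therefore have higher FPKM than their longest transcript would give. Col1a1 was scaled to 1781 bases, and its longest transcript has 5930. When reads were divided by the longest annotated transcript and scaled to equal sums, Acta1 ranked first, mt-Co1 next and Mylpf after it, and Col1a1 fell to rank 10, Col3a1 to rank 16 and Col1a2 to rank 18. Of the 25 genes, 19 stayed among the 25 highest on this scale.

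Grouped into 49 gene lists with 1120 matched genes, which together held 43.2% of the summed FPKM, the muscle divided as follows. The 7 muscle fibre lists held 6.78%, 9.04% and 8.17% in libraries 1, 2 and 3. Immune cells and immune programmes held 8.08%, 7.27% and 9.76%, in lists that include genes other cells also make, such as Fth1 and H2-D1. Collagens, matrix glycoproteins and matrix proteases held 5.02%, 6.16% and 4.08%. Library 2 was thus highest for fibre and matrix and lowest for immune genes, and library 3 was highest for immune and lowest for matrix genes. Ribosomal proteins and translation factors held 9.66%, 8.02% and 8.10%, with library 1 highest. By the longest transcript, the matrix share was 3.75 ± 0.784% where FPKM gave 5.09 ± 1.04% (SD, n = 3), and the mitochondrial genome held 4.40% where FPKM gave 2.66%, which is 1.66 times as much.

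**Figure D2:**
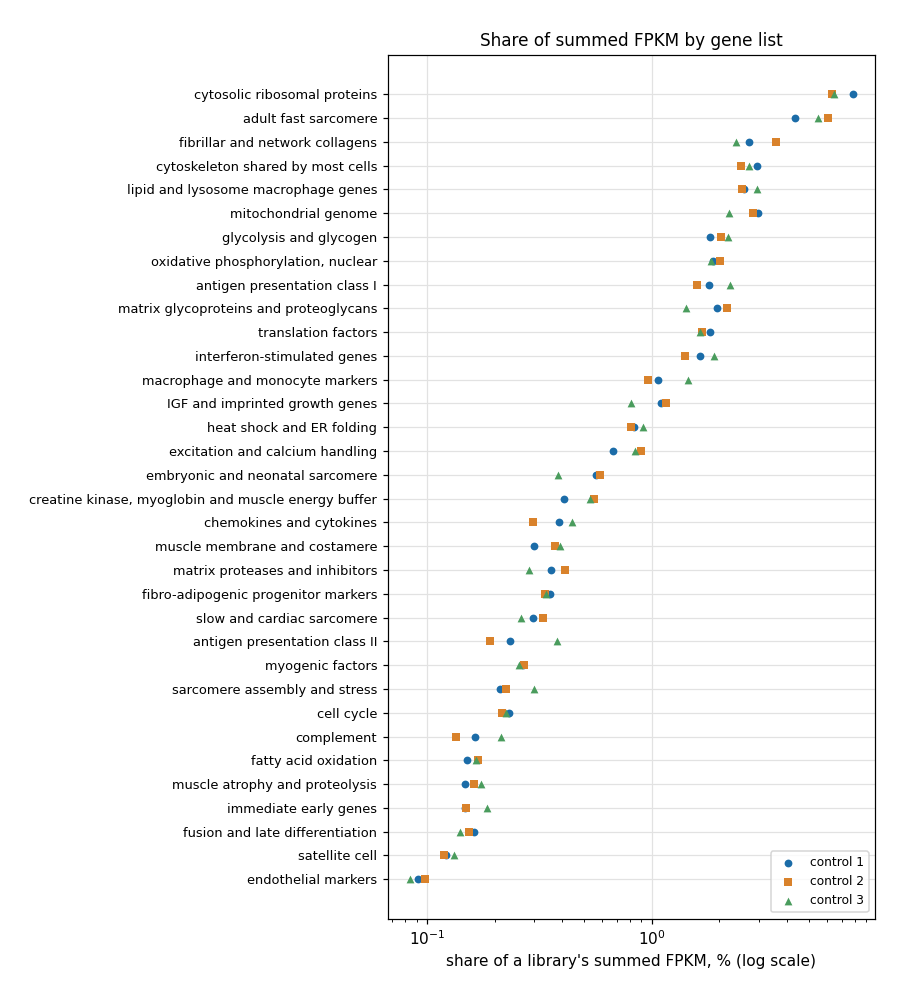
Each row is a gene list, and the horizontal axis gives its share of a library's summed FPKM in percent on a log scale, with 1 point for each of 3 libraries. The 34 lists shown are those of largest mean share, without sex-linked genes and histones; ribosomal proteins (mean 6.88%) and the adult fast sarcomere (5.29%) lead on this scale, whereas by reads ribosomal proteins (3.41%) lie below collagens (4.20%) and the adult fast sarcomere (4.19%), and points of the myogenic factors lie almost on top of each other.

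Fast forms led among the contractile genes. The adult fast sarcomere list held 4.33%, 6.08% and 5.46% of the FPKM, the embryonic and neonatal list 0.565%, 0.590% and 0.382%, and the slow and cardiac list 0.298%, 0.329% and 0.262%. Of 30 fast genes 29 passed 1 FPKM, with a median of 227 FPKM over the list. The exception was Myh13, the extraocular myosin, at 0.0982 FPKM. Library 1 had the lowest value in 26 of the 29 genes, against 24.6% of all 14873 genes. Its embryonic genes were not low. Of those 6 genes, 3 were highest in library 1 and 3 in library 2, against 36.9% and 29.4% of all genes. All 6 were lowest in library 3, against 41.9% of all genes.

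Adult and immature myosin heavy chains, the motor proteins of the thick filament, were present together. Myh4, the fast 2B form, stood at 420, 519 and 689 FPKM, and its share of the FPKM of 9 sarcomeric myosins was 31.3%, 26.1% and 41.1%. Myh1, the 2X form, stood at 224, 693 and 456 FPKM, which made it the most variable of the abundant forms. Myh8, the neonatal form, stood at 350, 443 and 290 FPKM, and Myh3, the embryonic form, at 337, 274 and 207 FPKM. Neighbours in this order overlapped between libraries, and by the longest transcript Myh3 (19.7%) lay above Myh8 (17.4%). Myh2, the 2A form, reached 32.1 ± 21.8 FPKM, and Myh7, the slow form, 1.23 FPKM, or 0.0709% of the family. Myh3 and Myh8 together made up 51.2%, 36.1% and 29.7% of the FPKM of Myh1, Myh2, Myh3, Myh4, Myh7 and Myh8, so library 1 held the most immature mixture and library 3 the least.

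The same order of libraries recurred across the contractile families. Actc1, cardiac alpha-actin and the early form in skeletal muscle, stood at 1978, 2265 and 1464 FPKM, and its share beside Acta1 was 25.7%, 19.3% and 13.6%. Myl4, the embryonic light chain, made up 15.0%, 10.2% and 8.07% of the pair with Myl1. Tnnt2, cardiac troponin T, made up 10.6%, 6.04% and 4.48% of the pair with Tnnt3. In each pair library 1 was highest and library 3 lowest. By the longest transcript the Myl4 share was lower, at 6.12% on average where FPKM gave 11.1%, and the Tnnt2 share was 3.55% where FPKM gave 7.06%, with the libraries in the same order.

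The slow troponins were abundant without the slow myosin. Tnni1, slow troponin I, stood at 575, 564 and 359 FPKM and held 25.4%, 19.8% and 14.7% of the pair with the fast Tnni2. Tnnt1, slow troponin T, averaged 235 ± 10.4 FPKM, and Tnnc1, slow and cardiac troponin C, 237 ± 72.7 FPKM. The light chains of slow fibres, Myl2 and Myl3, averaged 1.38 and 2.29 FPKM, and Pln, the calcium pump inhibitor of slow and cardiac muscle, 0.0730 FPKM. Slow troponins are also made in developing fast fibres.

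Calcium handling and membrane genes held RNA of the adult fast form and of an immature, slow or cardiac partner. These are values of whole muscle, so the shares are not measured in fibres alone. Atp2a1, the fast calcium pump SERCA1, stood at 943, 1547 and 1485 FPKM, and Atp2a2, SERCA2, held 13.2%, 8.95% and 7.66% of the pair. Casq2, the cardiac and slow calsequestrin, held 39.9%, 30.2% and 24.9% of the pair with Casq1. Ryr3, a calcium release channel of young muscle, held 1.27%, 0.583% and 0.464% beside Ryr1. Utrn, utrophin, which takes the place of dystrophin in young fibres, held 69.9%, 69.0% and 68.5% beside Dmd, the smallest spread of these shares relative to the mean. Sln, sarcolipin, a small inhibitor of the pump, made up 92.2 ± 1.73% (SD, n = 3) of the FPKM of Sln, Pln and Mrln.

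RNA of the fetal acetylcholine receptor prevailed over the adult form. Chrng, the gamma subunit of the fetal and denervated receptor, stood at 105, 69.4 and 71.4 FPKM, and Chrne, the epsilon subunit of the adult synapse, at 7.10, 8.25 and 7.02 FPKM. The ranges of the subunits did not meet, and Chrng held 93.6%, 89.4% and 91.0% of the pair. Chrna1 and Chrnb1, subunits that both receptors share, averaged 74.8 ± 15.2 and 120 ± 7.09 FPKM. Rapsn, which clusters the receptor, averaged 26.04 FPKM, and its kinase Musk 5.43 FPKM.

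Such pairs or families, 10 in all, were put together with the values known. The share of the immature, slow or cardiac partner in whole muscle was highest in library 1 in all 10. It was lowest in library 3 in 9, the exception being Chrng, lowest in library 2. A second set of 12 pairs sets a form used by most cells against its muscle-specific partner. There too library 1 was highest in all 12, and library 2 was lowest in 10 of 12. Eno1, the enolase of most cells, held 42.8%, 29.6% and 35.5% beside Eno3, the muscle enolase. Ckb, brain creatine kinase, held 12.7%, 6.60% and 8.96% beside Ckm. Eef1a1 held 98.4%, 96.0% and 95.0% beside Eef1a2, its partner in mature muscle and neurons. All these shares come from the same 3 libraries and are not separate observations.

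**Figure D3:**
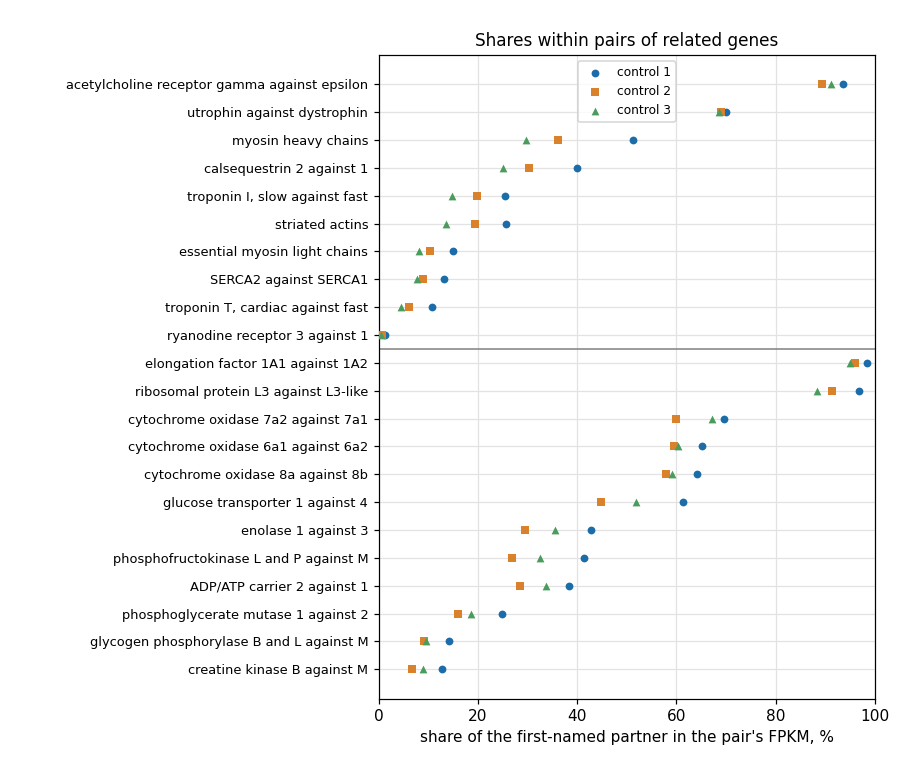
Each row is a pair or family of related genes, and the horizontal axis gives the share of the first-named or immature partner in percent, with 1 point per library. Rows above the line set an immature, slow or cardiac form against the adult fast one (Myh3 and Myh8, Actc1, Myl4 and Tnnt2 are the immature genes where the row names none first) and rows below it set a broadly expressed form against a muscle-specific one; control 1 is the rightmost point in all 22 rows.

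The summed shares of muscle stem cell and myogenic factor genes varied little, but single genes of the stem cell list did not all follow its sum. The satellite cell list held 0.121%, 0.119% and 0.132% of the FPKM and the myogenic factor list 0.268%, 0.269% and 0.256%, a CV of 2.75% over the libraries. The syndecan Sdc3, at 383, 395 and 489 FPKM, was by far the most abundant of the satellite cell list. Of the 16 genes of that list above 1 FPKM, 10 were highest in library 1, against 36.9% of all genes. In library 3, 11 were lowest, against 41.9% of all genes. The median SD of log2(FPKM + 1) of the 16 was 0.200 where all genes had 0.146. Pax7, the factor that defines satellite cells, stood at 4.24, 3.32 and 2.97 FPKM. Myf5, the factor of the proliferating myoblast, stood at 7.21, 4.43 and 3.17 FPKM. Both were highest in library 1 and lowest in library 3. Later factors were far more abundant: Myod1 stood at 63.8, 47.2 and 71.3 FPKM, and Myog, which drives differentiation, at 188, 146 and 166 FPKM. Myog held 56.2 ± 3.11% and Myf5 1.67 ± 0.632% of the FPKM of the 4 factors Myf5, Myod1, Myog and Myf6 (SD, n = 3). Their lengths come from few transcripts, and the longest-transcript scale gave 56.2% and 1.67% as well. Pax3 and Calcr, markers of embryonic and quiescent precursors, stood at 0.118 and 0.135 FPKM.

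Genes of myoblast fusion were expressed in every library. Mymk, myomaker, which lets myoblasts fuse, stood at 118, 89.2 and 77.0 FPKM, and Mymx, myomixer, its partner, at 98.0, 60.1 and 58.5 FPKM. Both were highest in library 1. The other abundant genes of the list, Klhl41 (145 ± 9.94 FPKM), a sarcomere stabiliser, and Ehd1 (129 ± 3.04 FPKM), a membrane recycling protein, moved little between libraries. The list as a whole held 0.162%, 0.153% and 0.1404%.

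Short promoter windows of Chrng and Acta1 are shown because these genes stand for the fetal receptor and the adult actin in the same muscle, and both carry the E-box CAGCTG that MyoD-family factors bind. They come from RefSeq promoters on build GRCm38.p6, on the gene's strand, with the E-box in capitals. The Chrng window is chr1:87205656-87205685, plus strand, 155 to 126 bases before the start. The Acta1 window is chr8:123894979-123895008, minus strand, 233 to 204 bases before the start.
Chrng: CAGCTGacaatgcagtggtcagaCAGCTGg
Acta1: gggaggggcagaCAGCTGgggatactctcc
CAGCTG, which reads the same on both strands, was found in 16.3% of all 32851 promoters of 300 bases in the table and in 18.5% of the 10500 matched genes above 1 FPKM. It was found in 5 of 10 matched genes of the acetylcholine receptor and synapse list above 1 FPKM, in 6 of 15 of the calcium handling list, in 6 of 17 of the adult fast sarcomere list and in 1 of 6 of the embryonic and neonatal list. Of the lists outside muscle, it was found in 9 of 39 interferon-stimulated genes, 1 of 16 class I genes, 2 of 14 collagens and 3 of 62 ribosomal protein genes. A match is a run of letters and not a bound site.

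Imprinted growth genes are high in the fetus and return in regenerating muscle. The list that joins them with other IGF genes, such as Igfbp1 and Igf2bp1, held 1.10%, 1.16% and 0.807%. H19 led at 4268, 4103 and 3216 FPKM. Igf2, the fetal growth factor of the same locus, stood at 648, 667 and 352 FPKM and made up 88.1 ± 1.33% of the FPKM of Igf2 and Igf1. Of 25 genes of the list above 1 FPKM, 21 were lowest in library 3, against 41.9% of all genes. Dlk1 stood at 19.8, 45.2 and 6.59 FPKM, Plagl1 at 186, 224 and 57.2 FPKM, and Mest at 292, 401 and 143 FPKM, each highest in library 2 and lowest in library 3. Igf2 shares 3284 bases of exon with Gm49394, a read-through gene in GENCODE M21.

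The H19 exon holds the miRNA gene Mir675, whose mature products are shown because this library type does not measure them. The coordinates are chr7:142577112-142577133 (5p) and chr7:142577078-142577099 (3p), minus strand, on GRCm38.p6, with the seed, bases 2 to 8, in capitals.
mmu-miR-675-5p: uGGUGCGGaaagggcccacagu
mmu-miR-675-3p: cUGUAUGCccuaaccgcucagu
No read was assigned to Mir675 in any library although H19 had 113179, 101115 and 100660 reads, and all 84 bases of Mir675 lie in the H19 exon. No source used here says how the authors counted reads shared by 2 genes.

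Glycolytic genes and nuclear oxidative genes held similar shares of the FPKM. By reads the glycolytic share was 1.51% and the nuclear oxidative share 1.06%. The mitochondrial genome, which encodes further oxidative subunits, was counted apart and held 2.66% of the FPKM and 2.14% of the reads. Glycolysis and glycogen genes held 1.82%, 2.03% and 2.19%, and 55 nuclear genes of oxidative phosphorylation held 1.88%, 2.01% and 1.84%, and these ranges overlapped. The glycolytic sum includes Gapdh, whose low values are given at the end. Aldoa, aldolase A, stood at 2071, 2615 and 3118 FPKM, and Ldha made up 98.1% of the FPKM of Ldha and Ldhb. The oxidative list was among the steadiest, with a median SD of log2(FPKM + 1) of 0.0868 where all genes had 0.146. Ckm, muscle creatine kinase, stood at 602, 1030 and 975 FPKM, low in library 1 like the fast sarcomere. All 3 cytochrome oxidase pairs held more of the broad form: Cox6a1, Cox7a2 and Cox8a made up 61.6%, 65.6% and 60.4% beside Cox6a2, Cox7a1 and Cox8b.

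The mitochondrial genome did not move as a unit. The 15 genes held 2.96%, 2.81% and 2.21%, and 14 of them were lowest in library 3, against 41.9% of all genes. mt-Nd2, a complex I subunit, stood at 1294, 1226 and 1212 FPKM. mt-Co3, a cytochrome oxidase subunit, stood at 842, 928 and 262 FPKM, and mt-Nd4l, another complex I subunit, at 77.3, 90.7 and 18.3 FPKM. These neighbours are cut from common precursor RNAs, and the reason for their unequal values was not tested.

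Collagen and matrix genes were among the most abundant and followed library 2. The collagen list held 2.71%, 3.59% and 2.37%, with 17 of its 19 genes highest in library 2 and 16 lowest in library 3, against 29.4% and 41.9% of all genes. Col1a1 held 40.9%, 45.4% and 45.6% of the FPKM of Col1a1, Col1a2 and Col3a1 (mean 44.0 ± 2.67%, and 39.0% by the longest transcript). Col6a3, of the microfibrils around fibres, stood at 218, 303 and 126 FPKM. Postn, periostin, a protein of wound matrix, stood at 2228, 2232 and 919 FPKM. Sparc, a collagen-binding protein, stood at 4057, 4672 and 3146 FPKM. Mmp14 and Mmp2, matrix metalloproteases, averaged 720 ± 189 and 597 ± 145 FPKM, and their inhibitors Timp2 and Timp1 221 ± 58.1 and 197 ± 29.2 FPKM. Timp1 was highest in library 3 and Timp2 lowest there. By the longest transcript the collagen list held 1.76% on average where FPKM gave 2.89%.

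Fibroblast-lineage markers had a steady sum but not steady genes. The fibro-adipogenic progenitor list held 0.353%, 0.334% and 0.337%, and all 19 genes passed 1 FPKM. The median SD of log2(FPKM + 1) over its genes was 0.332, where matrix genes had 0.290. Of the 19, 11 were lowest in library 3, against 41.9% of all genes. Pdgfra, the receptor that defines these cells, stood at 51.8, 50.7 and 43.2 FPKM. Ly6a, which encodes Sca-1 and is also raised by interferon, stood at 1041, 783 and 1236 FPKM, highest in library 3. It averaged 1020 FPKM where the list median was 49.9 FPKM, so it weighs heavily in the sum. The steady sum therefore does not show that the other genes of the list held level. Ptn, a growth factor, stood at 144, 135 and 41.3 FPKM, lowest there. All 7 tendon markers passed 1 FPKM, with Tnmd, tenomodulin, at 57.4, 66.0 and 24.2 FPKM.

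Immune genes were abundant and followed library 3. Macrophage and monocyte markers held 1.07%, 0.965% and 1.45%, with 31 of 34 genes highest in library 3, against 33.7% of all genes. Lyz2, lysozyme, led at 1412, 1218 and 1743 FPKM, and the C1q chains C1qa, C1qb and C1qc averaged between 623 and 766 FPKM. Ly6c2, a marker of inflammatory monocytes, stood at 256, 242 and 592 FPKM, and Arg1, arginase, at 110, 52.0 and 156 FPKM. Lipid and lysosome genes of macrophages held 2.58%, 2.51% and 2.93%, the largest share among the immune lists. The list includes Fth1, Ctsb, Lamp1 and Psap, which other cells also make, so this share is not that of macrophages alone. Of the 31 genes of that list, 18 were highest in library 3 and 11 lowest there, against 33.7% and 41.9% of all genes. Those lowest in library 3 included Spp1 (295, 262 and 182 FPKM), osteopontin, Trem2 (69.0, 59.1 and 51.8 FPKM), a lipid receptor, and Gpnmb (198, 182 and 155 FPKM), the reverse of the monocyte marker Ly6c2.

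Class II antigen presentation genes showed a wide spread, at 0.234%, 0.190% and 0.381%. Cd74, the invariant chain, stood at 347, 278 and 603 FPKM, and H2-Ab1 at 495, 418 and 879 FPKM. Class I genes held 1.79%, 1.58% and 2.22%, with 17 of 18 genes highest in library 3 and all 18 lowest in library 2, against 33.7% and 33.5% of all genes. Complement C3 stood at 237, 180 and 438 FPKM. T cell and NK cell markers held 0.0813%, 0.0658% and 0.103%, with 26 of 31 highest in library 3 and 26 lowest in library 2. Gzma and Gzmb, granzymes of cytotoxic cells, averaged 63.5 ± 32.2 and 67.5 ± 21.8 FPKM, while the T cell receptor chain Cd3e averaged 4.05 FPKM and the regulatory T cell factor Foxp3 0.476 FPKM.

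Interferon-stimulated genes were all measurable. All 52 passed 1 FPKM, as did 28.4% of the 52369 genes in the table, of which 22785 stood at 0 in every library. The list was chosen with earlier results of these data known, so its passing and its level are not a test. The median of the 52 was 148 FPKM, against 13.2 FPKM over all genes that passed, and the list held 1.64%, 1.41% and 1.88%. Of the 52, 43 were highest in library 3 and 45 lowest in library 2, against the same shares of all genes, 33.7% and 33.5%. Ifitm3, a membrane antiviral protein, stood at 1241, 1063 and 1414 FPKM, and Irf7, a factor of the interferon response, at 637, 663 and 928 FPKM. Gbp2, a guanylate-binding protein, stood at 344, 142 and 346 FPKM, and the chemokine Cxcl10 at 348, 234 and 376 FPKM. Ifi208, of another interferon-inducible family, stood at 26.7, 0.802 and 36.1 FPKM, almost absent from library 2. The muscle had been injected with plasmid DNA, and no muscle without plasmid was analysed here.

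Promoter windows of Isg15 and Ifit3 are shown because these genes were abundant, at 405 ± 47.2 and 302 ± 38.6 FPKM, and hold repeats of the interferon response element. Capitals mark GAAA, 2 free bases and GAAA again, on either strand, and overlapping matches run together. The Isg15 window, with 3 matches, is chr4:156200871-156200900, minus strand, 82 to 53 bases before the start. The Ifit3 windows are chr19:34583363-34583392 and chr19:34583397-34583426, plus strand, 166 to 137 and 132 to 103 bases before the start, on GRCm38.p6.
Isg15: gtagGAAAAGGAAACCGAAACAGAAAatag
Ifit3, first: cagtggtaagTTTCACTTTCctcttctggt
Ifit3, second: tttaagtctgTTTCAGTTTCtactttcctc
This pattern was found in 24 of 39 matched interferon-stimulated genes, in 5 of 16 class I genes, in 7 of 62 ribosomal protein genes and in none of 17 adult fast sarcomere genes, 6 embryonic and neonatal genes, 10 receptor and synapse genes, 15 calcium handling genes or 14 collagens. It was found in 3.44% of all promoters of the same length and in 4.00% of the 10500 matched genes above 1 FPKM.

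**Figure D4:**
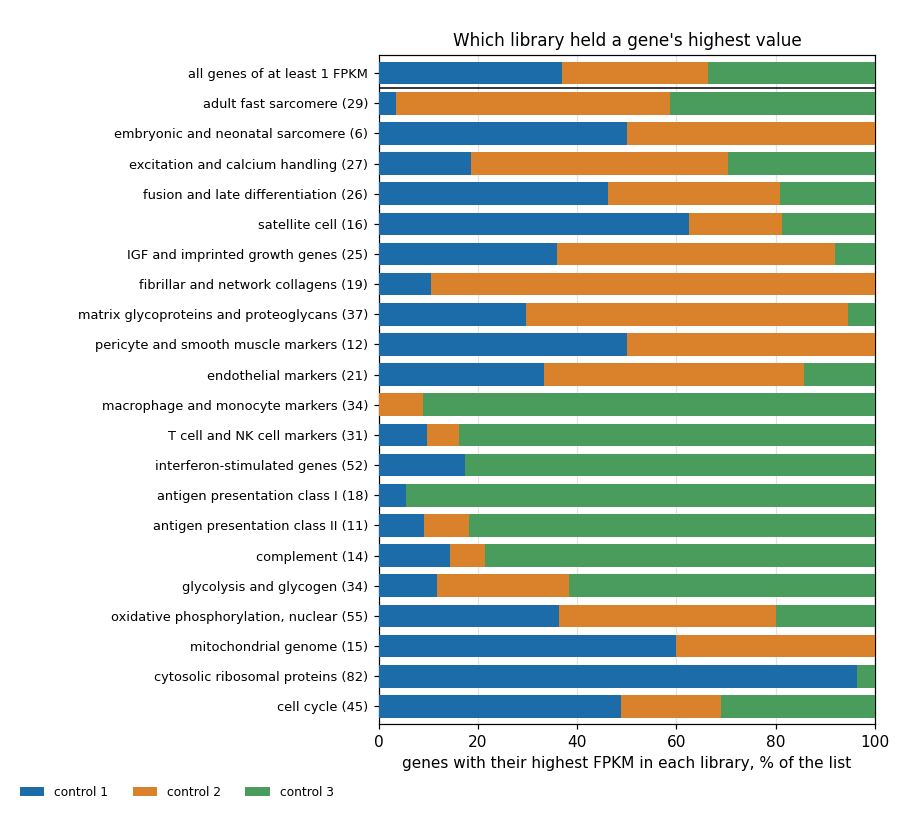
Each bar gives, for a gene list with its number of genes above 1 FPKM in brackets, the percentage of genes whose highest FPKM lay in each of 3 libraries; the top bar holds all 14873 genes. Antigen presentation, interferon-stimulated, macrophage and T cell lists are mostly highest in control 3, collagens in control 2 and ribosomal proteins in control 1.

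Markers of other cell types were checked for what the dissection held. Endothelial markers were all above 1 FPKM and held 0.0910%, 0.0976% and 0.0841%, with Pecam1 at 70.98 ± 5.22 FPKM and Cdh5, VE-cadherin, at 71.9 ± 12.4 FPKM. Pericyte and smooth muscle markers held 0.115%, 0.0938% and 0.0583%. All 12 above 1 FPKM were lowest in library 3, against 41.9% of all genes. Acta2, smooth muscle actin, stood at 413, 286 and 186 FPKM. Schwann cell markers were low, with 8 of 14 above 1 FPKM. Neutrophil markers were split, with 9 of 14 above 1 FPKM and a median of 1.97 FPKM over the list. S100a8 and S100a9 averaged 80.1 ± 25.7 and 78.7 ± 23.8 FPKM. The granule genes Elane, Mpo and Ngp and the surface marker Ly6g lay between 0.147 and 0.461 FPKM. Adipoq and Plin1, which define mature fat cells, stood at 0.647 and 0.122 FPKM, and 6 of 15 adipocyte markers passed 1 FPKM. The highest of these were Pnpla2 (56.8 ± 16.2 FPKM), a lipase, and Fabp4 (39.2 ± 4.25 FPKM), a fatty acid carrier, which other cells also make. Of 15 B cell and plasma cell markers 9 passed 1 FPKM, with a median of 2.19 FPKM over the list. The B cell marker Ms4a1 was lowest at 0.213 FPKM. The antibody light chain Igkc was highest at 81.0 ± 20.6 FPKM, and the heavy chain Ighm averaged 18.9 ± 9.18 FPKM. Of 12 epidermis markers 5 passed 1 FPKM, none above 10 FPKM. Krt14, a basal keratin, stood at 3.53 FPKM in library 1, and libraries 2 and 3 had no read of it, which allows up to 0.1096 and 0.0863 FPKM. The globin Hbb-bs, of red blood cells, stood at 188, 159 and 61.2 FPKM, lowest in library 3. The part of these differences in the other library differences was not tested.

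**Figure D5:**
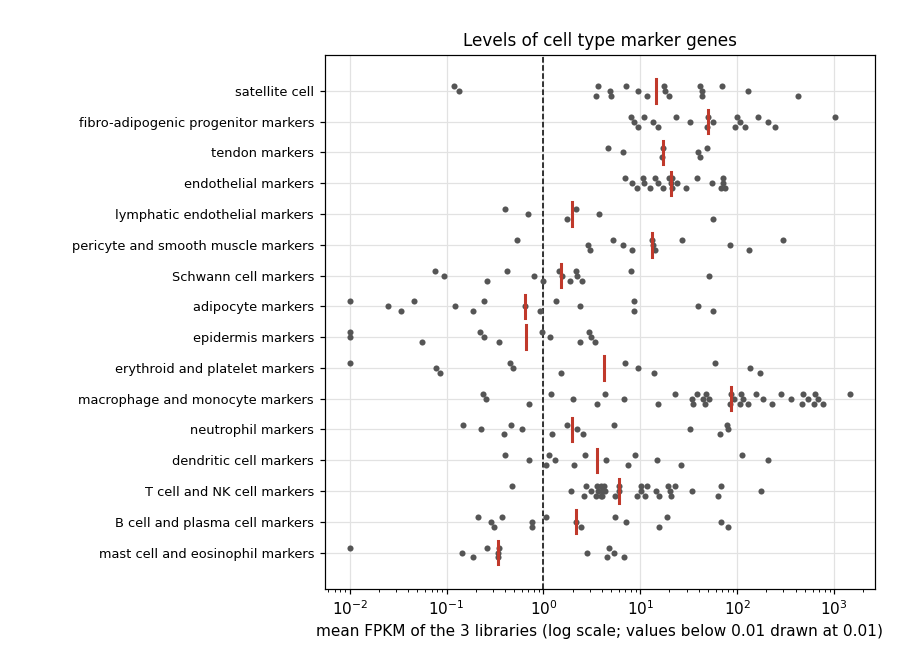
Each point is 1 marker gene of a cell type list, placed by its mean FPKM over 3 libraries on a log axis; red bars are list medians and the dashed line is 1 FPKM. Macrophage and monocyte markers have the highest median of the 16 lists plotted (87.1 FPKM), which leave out the lipid and lysosome genes of macrophages (297 FPKM), and adipocyte, epidermis and mast cell lists have medians below 1 FPKM.

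Genes of dividing cells stood at similar levels in all libraries. All 45 cell cycle genes passed 1 FPKM and held 0.231%, 0.215% and 0.224%, a CV of 3.76%. Top2a, a topoisomerase of dividing cells, stood at 62.0, 52.8 and 54.7 FPKM, and Mki67, the Ki-67 antigen, at 18.1, 15.7 and 15.0 FPKM. Cdkn1a, the p21 inhibitor that stops the cycle in differentiating myoblasts, averaged 395 ± 41.7 FPKM. Among D cyclins Ccnd3, the form of differentiating muscle, held 59.5 ± 1.05%, and Ccnd1 13.0 ± 1.69%.

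Ribosomal protein genes moved together. Of 82 above 1 FPKM, 79 were highest in library 1, against 36.9% of all genes, and the list held 7.84%, 6.35% and 6.46%. Rplp1, of the ribosomal stalk, stood at 2130, 1663 and 1749 FPKM. Rpl3l, the muscle-specific partner of Rpl3, ran the other way at 19.01, 40.5 and 56.0 FPKM. Many ribosomal protein genes have near-identical processed copies, so their values are uncertain.

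Over all genes the spread was small. The median SD of log2(FPKM + 1) was 0.146 over 3 libraries. Without library 3 it was 0.0971, but an SD over fewer libraries is not directly comparable. The median CV was 11.6% where counting alone gives a median of 4.31%. Besides the sex-linked genes and Ifi208, the widest spread among genes above 10 FPKM included Serpina3n (19.4, 4.99 and 52.9 FPKM), a protease inhibitor of the acute phase, Cxcl14 (24.96, 20.9 and 97.8 FPKM), a chemokine, and Mt3 (17.9, 18.4 and 72.8 FPKM), a metallothionein. In these 3 genes library 3 was highest. Pamr1 (51.3, 66.6 and 12.6 FPKM), Lrrc15 (27.1, 33.0 and 6.44 FPKM), a fibroblast membrane protein, and Enpp1 (16.5, 20.2 and 4.43 FPKM), a phosphodiesterase, were lowest in library 3. At the other end Psmd7, a proteasome subunit, stood at 116, 117 and 116 FPKM, and Ranbp10, Kdm2b, Chtop, Dnaja2 and Pdia3 all had a CV below 1%.

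Some genes had low values that cannot safely be read as levels. Tnnc2, fast troponin C, had 22, 17 and 12 reads, or 1.62 ± 0.582 FPKM, while its partner genes Tnnt3 and Tnni2 were at least 1692 FPKM in every library. In GENCODE M21 it shares 144 bases of exon with Ube2c. Gapdh stood at 62.0, 223 and 45.6 FPKM, while Tpi1, which acts next to it in glycolysis, stood at 1608, 1576 and 1606 FPKM. Gapdh has many near-identical copies in the genome. Tagln, a smooth muscle marker, averaged 0.527 FPKM and shares 645 bases with Gm48529. S100a4 averaged 0.297 FPKM and Mt2 0.303 FPKM, and they share 156 and 212 bases with Gm42674 and Gm45774. The library kit is not described as strand-specific, so values of overlapping genes are uncertain. Mb, myoglobin, also shares 412 bases of exon with another gene and stood at 374, 527 and 479 FPKM. The reason for the low values was not tested, and the list counts above include them.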

How the data were processed

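Poly-A RNA of the 3 control muscles was sequenced (3 µg of RNA each, fragments of 150 to 200 bases, per the labels' protocols). The submitters' processing notes name Bowtie2 2.2.3, TopHat2 2.0.12, HISAT2 2.0.4, DESeq 1.12.0 and build mm10, with no roles; no source used here names the counting program or the annotation. The authors deposited FPKM per gene and library, and a group mean of normalised reads, used here as a signal column. From the deposited FPKM and this signal, whole reads per gene were recovered: 100% of 77076 values above 0 came out whole within 0.05, and the step recovered all reads on simulated data. Because only 1 group is described, no count test was run. Symbols and exon overlaps come from GENCODE M21, and promoters and miRNAs from RefSeq tables.

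Genes of mean FPKM of at least 1 were kept. Shares are of all FPKM in a library; means are over 3 libraries with SD; log2 values use a pseudocount of 1. Named genes were the 25 of highest mean with an informative symbol, every gene of 43 isoform families, the 5 highest of each list and the 2 of largest spread there, the 15 and 10 genes of largest and smallest spread above 10 FPKM, and those next to the threshold; other genes were added for their known roles with their values seen. A few of these genes are not reported here. The members, lists and families were chosen with earlier results of these data known. Alternatives were other thresholds, shares of reads, other denominators and pseudocounts, median-of-ratios scaling, each library left out and, chosen after seeing the data, reads per longest annotated transcript. The median gene had 539 reads, which gives a counting CV of 4.31%; intervals beyond that were not computed. Python 3.11.15, pandas 2.3.3 and numpy 2.4.6 were used.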

Additional observations from a re-analysis of the deposited data

How the results depend on the processing

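The 14873 genes became 16805 at a threshold of 0.5 FPKM, 10656 at 5 FPKM and 14015 when every library had to reach 1, and 14844 to 14896 with a library left out. As shares of reads, matrix genes held 7.13%, ribosomal and translation genes 4.72%, the mitochondrial genome 2.14% and myogenesis 1.91%, where FPKM gave 5.09%, 8.59%, 2.66% and 1.64%; gene length enters FPKM by construction. Per longest transcript, matrix held 3.75%, the mitochondrial genome 4.40%, Chrng 87.6% beside Chrne and Utrn 76.8% beside Dmd (73.4% by reads). Among protein-coding genes outside the mitochondrial genome, myogenesis held 1.08%, since H19 is not protein-coding. With a library left out, the Myh3 and Myh8 share ran from 32.9% to 43.6% and the Actc1 share from 16.4% to 22.5%. Of the 25 highest genes 22 to 24 stayed. The median SD of log2 was 0.0315 without a filter and 0.0971 to 0.135 with a library left out, the lowest without library 3. Values with a library left out are SDs over fewer libraries and are not directly comparable with those over 3. The lowest correlation was 0.968 with a pseudocount of 0.1 and 0.992 without a filter. No paired analysis was possible because only 1 group is described. The 5% of genes with the fewest reads averaged 23 reads or fewer per library, which limits their precision.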
